A study of Mus musculus with 6 samples.

Results

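The constant region genes of the immunoglobulin loci were examined in lymphomas of Eμ-Myc mice, which carry a Myc transgene driven by the immunoglobulin heavy chain enhancer and develop tumors of B-lineage cells. The 10 genes were chosen by name: Ighm, Ighd, Ighg1, Ighg2b, Ighg2c, Ighg3, Igha and Ighe of the heavy chain locus, Igkc of the kappa locus and Iglc1 of the lambda locus. Of these, 7 have a row of their own name among the 38293 genes of the expression table, and Ighd, Igha and Iglc1 were not analysed here under those names. The table has a row called AC160982.1 whose Ensembl identifier, ENSMUSG00000095079, is named Igha in GENCODE M21. Its values are given beside the members as those of the AC160982.1 row. Iglc2, the only other lambda constant region gene with a row, is given beside Igkc.

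RNA was sequenced from 4 Eμ-Myc miR-146a+/+ tumors, called sufficient, and 2 Eμ-Myc miR-146a-/- tumors, called deficient, all from C57BL6 mice carrying the Myc transgene. Sufficient tumors 1 and 2 came from neck nodes of males aged 18 and 16 weeks, and sufficient tumors 3 and 4 from the thymus of males aged 10 weeks. Deficient tumors 1 and 2, both thymic, were from mice whose labels give female sex and ages of 11 and 10 weeks. No deficient neck node tumor and no labelled female sufficient tumor were included, so the labelled sex and the genotype cannot be told apart. The tumors were taken as whole cell suspensions, so in these bulk values fewer cells of a type and less RNA per cell cannot be told apart. Each value is an RPKM, the reads of a gene per kilobase of its length and scaled for library depth, with depth unknown.

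The label of deficient tumor 2 was at odds with its Y-linked Ddx3y, at 24.6 RPKM against 17.9 to 23.0 in the males and 0.130 in deficient tumor 1, and comparisons without each deficient tumor are therefore given below. Between 16947 and 19560 genes were above 0 in each tumor. Summed RPKM without Xist ranged from 673931 to 787151, and Xist alone, at 1240070 RPKM, took most of the sum in deficient tumor 1. B-lineage identity was checked with the signaling partners of the receptor: Cd79a was at 409.7, 550.4, 389.8 and 401 RPKM in the sufficient tumors, and the deficient tumors held 532 and 388 RPKM. Of the 6 thymic epithelium genes, the defining Foxn1 and Psmb11 were below 0.05 RPKM in every tumor. Krt8 was at 0 and 0.0525 RPKM in the neck node tumors, 0.371 and 0.555 in the thymic sufficient and 0.450 and 1.64 in the deficient tumors, and Ccl25 was above 0.5 RPKM in every tumor. The list summed to between 1.07 and 3.65 RPKM.

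An antibody is built from heavy and light chains, each with a variable region that binds antigen and a constant region. The constant region of the heavy chain sets the class of the antibody. A B cell first makes the mu constant region (IgM), then co-expresses delta by alternative splicing of the same transcript. Class switch recombination later replaces mu with a gamma, epsilon or alpha region that lies further downstream. On GRCm38 in GENCODE M21, Ighm lies at chr12:113418558-113422730 on the minus strand, followed downstream by Ighd, Ighg3, Ighg1, Ighg2b, Ighg2c, Ighe and Igha, whose start lies 162.5 kb from that of Ighm. Igkc is a single exon at chr6:70726435-70726966 on the plus strand. Light chains are kappa or lambda, and in mice most B cells use kappa. Switched constant region genes can also be transcribed before switching from their own promoters, so a transcript of one does not by itself mark a switched antibody.

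Ighm and Igkc stood near the top of all genes, and the other constant region genes lay far below them. Ighm, the mu heavy chain, was at 1062, 1235, 909.8 and 1653 RPKM in sufficient tumors 1 to 4, and the deficient tumors held 2272 and 2632 RPKM. Both deficient tumors lay above all sufficient tumors, and the nearest pair was the thymic sufficient tumor 4 and deficient tumor 1. Among all genes, Ighm ranked between 71 and 126 in the sufficient tumors and 50 and 44 in the deficient tumors.

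Igkc, the kappa light chain, was at 1001, 1127, 851 and 1171 RPKM in the sufficient tumors, and the deficient tumors held 3523 and 2017 RPKM. The sufficient tumors lay close together, and both deficient tumors lay above them, deficient tumor 1 furthest. The gene lengths behind the RPKM values are not given in the sources used here, so levels this near each other are not ordered between genes, and ratios and shares are compared between tumors. The ratio of Igkc to Ighm was 0.943, 0.913, 0.936 and 0.709 in the sufficient tumors and 1.55 and 0.766 in the deficient tumors. Deficient tumor 1 lay above all sufficient tumors in this ratio, and deficient tumor 2 lay below 3 of them. The members together took 0.307, 0.326, 0.224 and 0.380% of summed RPKM without Xist in the sufficient tumors, and 0.838 and 0.654% in the deficient tumors.

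**Figure D1:**
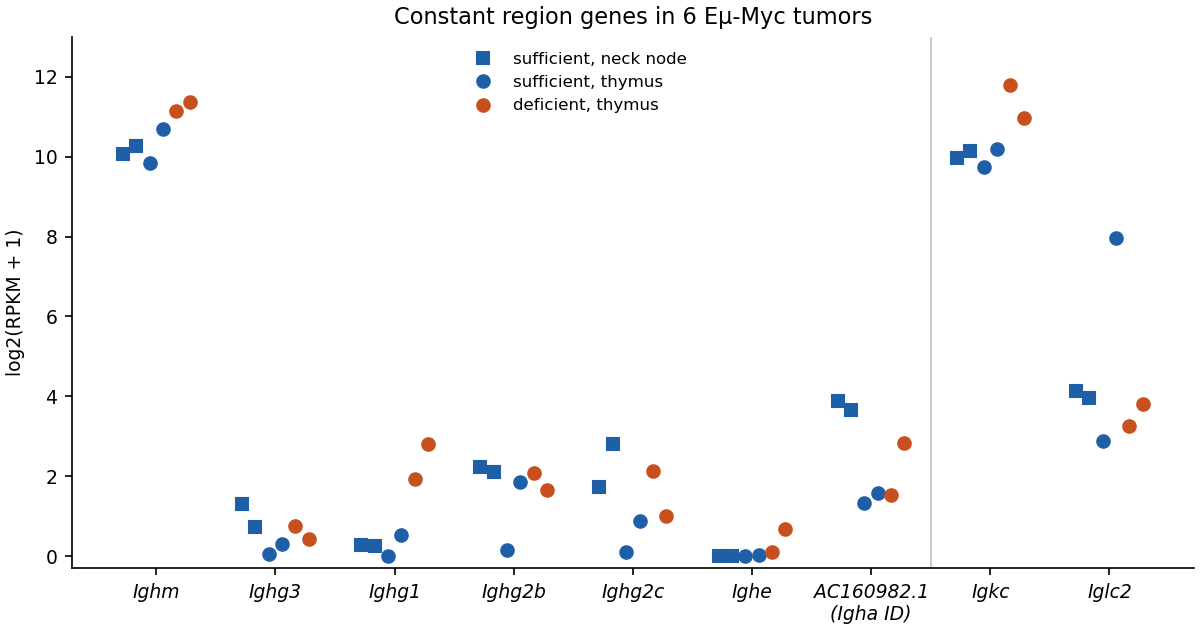
Level of each constant region gene as log2(RPKM + 1) in 6 tumors, heavy chain genes left of the line and light chain genes right of it; squares are neck node tumors, circles thymic tumors, blue sufficient and orange deficient. Ighm and Igkc lie near 10 to 12 in every tumor, the IgG genes below 3, and Iglc2 stands out in sufficient tumor 4.

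The comparison of genotypes asked whether loss of miR-146a went with a difference in these genes. The test was limma on log2(RPKM + 1) over the 12751 genes that reached 0.5 RPKM in 2 or more tumors, with Benjamini-Hochberg adjustment, and 8 genes passed an adjusted p of 0.05 (0.0627% of those tested). Of the 7 members with a row, 6 passed the filter on low values, and 0 of these 6 passed the threshold in limma. At an unadjusted p under 0.05, limma called 3 of the 6 higher in the deficient tumors, namely Ighm, Igkc and Ighg1, against 2.88% of all genes tested that were called higher and 3.62% called in either direction. The groups did not overlap for the same 3 members, with the deficient tumors higher, against 9.15% of all genes so placed and 2.09% with the deficient tumors lower. Ighg1 passed the filter only through the deficient tumors and so had to differ, and these counts are a description. The median log2 fold change of the 6 members was 0.67, and 6 of 6 were positive, against a median of 0.13 and 67.6% positive over all genes. This shift of all genes was -0.01 after median-ratio scaling and 0.01 after quantile normalization, so small positive values are read against it. Fold changes refer to log2(RPKM + 1), a scale on which changes of genes with low values come out too small.

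For Ighm the mean was 1215 ± 321 RPKM (SD, n = 4) in the sufficient tumors and 2452 ± 254 RPKM (SD, n = 2) in the deficient tumors, a ratio of 2.02. The log2 fold change was 1.04 (SE 0.32), with an unadjusted p of 0.0113 and an adjusted p of 0.893 in limma, and Ighm ranked 115 by p among the genes tested. Compared with thymic sufficient tumors alone it was 1.00 (SE 0.44, adjusted p = 0.662 in limma). It was 1.15 without deficient tumor 1 and 0.94 without deficient tumor 2. Ighm was thus higher in the deficient tumors in each of these fits, and in none of them did it pass the adjusted threshold.

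For Igkc the mean was 1038 ± 144 RPKM (SD, n = 4) in the sufficient and 2770.0 ± 1065 RPKM (SD, n = 2) in the deficient tumors, a ratio of 2.67. The log2 fold change was 1.37 (SE 0.32), with an unadjusted p of 0.00258 and an adjusted p of 0.818 in limma. Compared with thymic sufficient tumors alone it was 1.42 (SE 0.44, adjusted p = 0.662 in limma). Without deficient tumor 1, the tumor with the highest Igkc, it was 0.97, and without deficient tumor 2 it was 1.77. The size of the difference moved with the deficient tumor left out, while its direction was the same in each of these fits.

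Markers of other cells were compared beside these differences. The 8 macrophage genes were all higher in fitted value in the deficient tumors (median log2 fold change 1.05, 0 past the adjusted threshold and 5 at an unadjusted p under 0.05 in limma). Their summed RPKM was 26.1 to 65.0 in the sufficient tumors and 85.1 and 122 in the deficient tumors, led by C1qb and C1qa, which encode complement components made by macrophages. The 9 T cell genes showed a median log2 fold change of -0.62, 0 positive, 0 past the adjusted threshold and 2 at an unadjusted p under 0.05 in limma. Their sums were 52.9 to 98.1 against 44.4 and 50.2 RPKM. Cd2 made up most of this sum in every tumor except sufficient tumor 1, so the sum mainly follows that gene. Cd2 was at 12.7, 33.4, 54.4 and 76.5 RPKM in the sufficient and 31.4 and 33.3 RPKM in the deficient tumors. The part of these cells in the differences of Ighm and Igkc was not tested.

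The B-lineage list was compared because Ighm and Igkc are made by B-lineage cells. Its 8 genes showed a median log2 fold change of 0.16, with 0 past the adjusted threshold and 1 at an unadjusted p under 0.05 in limma, and their sum ranged from 1329 to 2049 RPKM in the sufficient tumors against 2299 and 1380 RPKM in the deficient tumors. Deficient tumor 1 lay above all sufficient tumors in this sum and deficient tumor 2 near the lowest of them. When the mean log2(RPKM + 1) of these 8 genes was subtracted within each tumor, Ighm stood at 4.25, 3.36, 3.24 and 4.23 in the sufficient tumors, with 3.95 and 5.12 for the deficient tumors on this log2 scale. The groups then overlapped, with a difference of means of 0.77 (exact two-sided permutation test, p = 0.4). Igkc on the same scale stood at 4.16, 3.23, 3.14 and 3.73 against 4.59 and 4.74, a difference of 1.10 without overlap. The exact permutation p for Igkc was 0.133, which is the smallest value that the 15 splits of 4 and 2 tumors can give. This relative scale was added after the data had been seen.

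**Figure D2:**
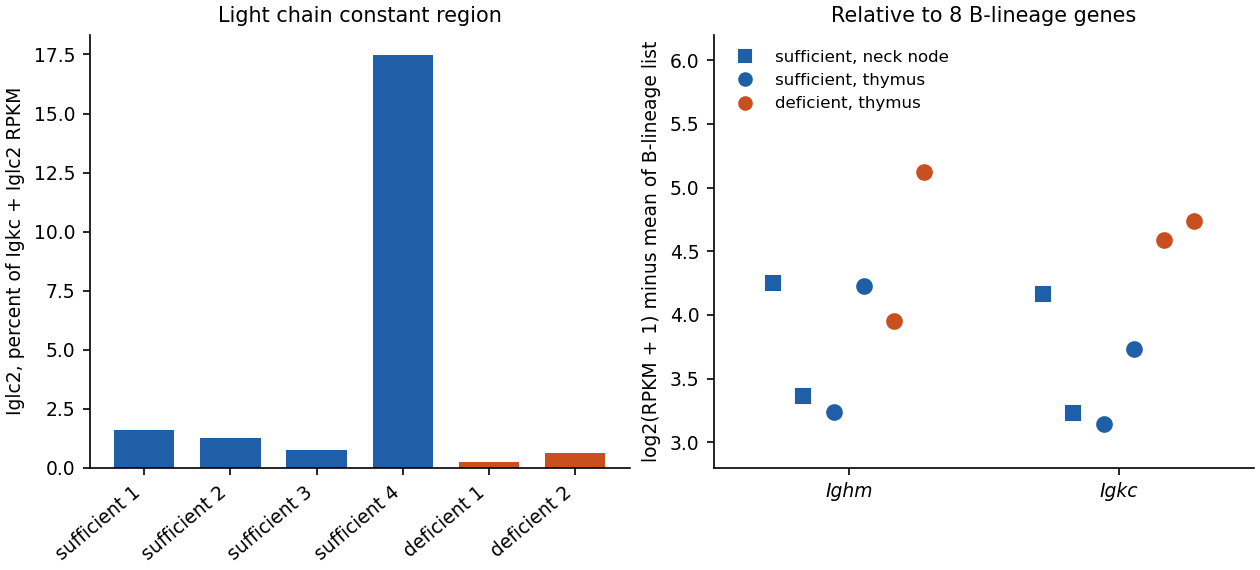
Left, Iglc2 as a percent of the summed RPKM of Igkc and Iglc2 in each tumor, blue sufficient and orange deficient; right, log2(RPKM + 1) of Ighm and Igkc minus the mean of 8 B-lineage genes in the same tumor, neck node as squares and thymus as circles. Sufficient tumor 4 reaches 17.5% Iglc2, and on the right the genotypes overlap for Ighm and not for Igkc.

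The IgG genes encode the gamma constant regions and share much of their sequence, which matters because a read must be told apart to be counted for 1 of them. The first 30 bases of the first constant exon, from GENCODE M21 transcripts on GRCm38, are shown with capitals where a base differs from Ighg2b, all on the minus strand of chromosome 12: Ighg2b at chr12:113307904-113307933, Ighg2c at chr12:113288903-113288932, Ighg1 at chr12:113330494-113330523, Ighg3 at chr12:113361203-113361232 and Ighm, which is not an IgG gene, at chr12:113422701-113422730.
Ighg2b: ccaaaacaacacccccatcagtctatccac
Ighg2c: ccaaaacaacaGccccatcGgtctatccac
Ighg1: ccaaaacGacacccccatcTgtctatccac
Ighg3: cTaCaacaacaGccccatcTgtctatccCT
Ighm: AGaGTCAGTcCTTcccaAATgtctTCccCc
Ighg2c and Ighg1 each differ from Ighg2b at 2 of these 30 bases, Ighg3 at 6 and Ighm at 17. Over the first constant exon, identity to Ighg2b was 88.3% for Ighg1, 87.6% for Ighg2c, 78.7% for Ighg3 and 51.7% for Ighm. The longest identical stretch between any 2 of the IgG genes was 88 bases, between Ighg2b and Ighg3. No window of 100 bases, the stated read length, was identical between a constant region gene and another gene of the annotation, so a whole read of 100 matching bases belongs to 1 gene, while reads with mismatches at these differences could be placed on another.

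The switched heavy chain genes lay far below Ighm. Ighm made up between 99.2 and 99.98% of the summed RPKM of the 6 heavy chain members in every tumor. The switched share was 0.714, 0.816, 0.0250 and 0.250% in the sufficient tumors and 0.445 and 0.383% in the deficient tumors, so the groups overlapped. With the AC160982.1 row added, a choice made after seeing the data, it was 1.97, 1.74, 0.190 and 0.370% in the sufficient and 0.527 and 0.612% in the deficient tumors. The summed IgG RPKM was 7.64, 10.2, 0.227 and 4.12 in the sufficient and 10.1 and 9.52 in the deficient tumors (exact two-sided permutation test, p = 0.4).

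Ighg1 was the IgG gene whose groups did not overlap. It was at 0.213, 0.188 and 0.442 RPKM in sufficient tumors 1, 2 and 4, was listed at 0 in sufficient tumor 3, and reached 2.81 and 5.99 RPKM in the deficient tumors. Its log2 fold change was 2.10 (SE 0.30, adjusted p = 0.101 in limma), but since it passed the filter only through the deficient tumors, where it is high, that p is not read as support. With no filter its adjusted p was 0.362 in limma. The size followed the pseudocount, at 3.99 with 0.1 and 0.83 with 5. Compared with thymic sufficient tumors alone it was 2.10 (SE 0.40, adjusted p = 0.503 in limma). With either deficient tumor left out it no longer passed the filter, so no such fit was made.

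The subclasses were not shared out alike in the tumors. Ighg1 made up 2.79, 1.85, 0 and 10.7% of the summed IgG RPKM in the sufficient tumors and 27.9 and 62.9% in the deficient tumors, and the groups did not overlap (exact two-sided permutation test, p = 0.133, the smallest it can give). Ighg2b made up 47.9, 32.6, 47.9 and 63.3% against 32.0 and 22.7%. These groups did not overlap either, with the deficient tumors lower and the nearest values at 32.6 and 32.0% (exact two-sided permutation test, p = 0.133). The shares are parts of the same sum, so a larger Ighg1 part goes with smaller parts of the other genes. Ighg2c made up 30.2, 59.1, 36.9 and 20.4% against 33.3 and 10.7%, and was highest in sufficient tumor 2.

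**Figure D3:**
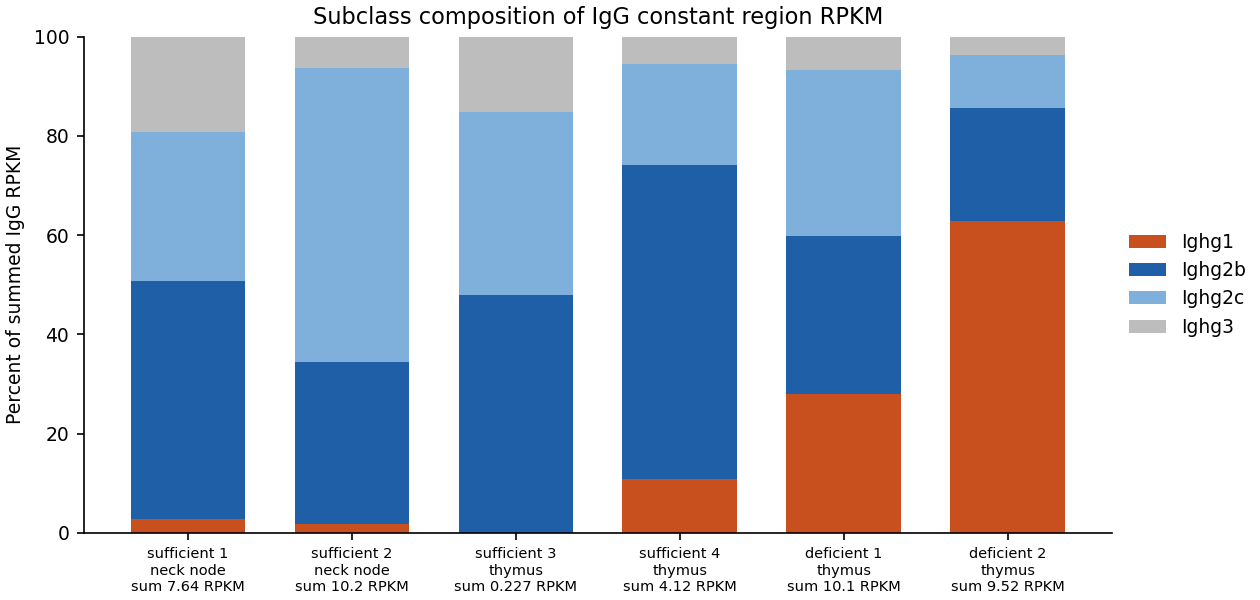
Percent of the summed RPKM of Ighg1, Ighg2b, Ighg2c and Ighg3 taken by each gene in 6 tumors, with the sum under each bar. The Ighg1 part, at the foot of each bar, is 0 to 10.7% in the sufficient tumors and 27.9 and 62.9% in the deficient tumors; the sum is 0.227 RPKM in sufficient tumor 3.

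Ighe, the epsilon constant region, was listed at 0 in sufficient tumors 1, 2 and 3, was at 0.0258 RPKM in sufficient tumor 4 and reached 0.0841 and 0.593 RPKM in the deficient tumors, highest in deficient tumor 2, which also had the highest Ighg1. It did not pass the filter and was not tested. The 14 tested genes of class switch recombination had a median log2 fold change of 0.11, 0 past the adjusted threshold and 1 at an unadjusted p under 0.05 in limma. This was Xrcc6, a subunit of the Ku complex that binds DNA ends, with a log2 fold change of -0.84 (adjusted p = 0.893 in limma). The most abundant were Parp1 at 164, 177, 102 and 126 RPKM in the sufficient and 150.4 and 144 in the deficient tumors, and H2afx.

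Ighg2b, Ighg2c and Ighg3 overlapped between genotypes. Ighg2b was at 3.66, 3.31, 0.109 and 2.61 RPKM in the sufficient and 3.22 and 2.16 RPKM in the deficient tumors, with a log2 fold change of 0.29 (SE 0.55, adjusted p = 0.928 in limma). Ighg2c was at 2.31, 6.002, 0.0837 and 0.840 RPKM against 3.35 and 1.02 RPKM, with a log2 fold change of 0.19 (SE 0.68, adjusted p = 0.963 in limma). Ighg3 was at 1.46, 0.649, 0.0346 and 0.227 RPKM against 0.684 and 0.351 RPKM, and all 3 genes were lowest in sufficient tumor 3. Compared with thymic sufficient tumors alone the log2 fold change was 0.87 for Ighg2b and 1.07 for Ighg2c, both with an adjusted p of 0.662 or more in limma.

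The AC160982.1 row was at 13.7, 11.6, 1.51 and 2.00 RPKM in the sufficient tumors, and the deficient tumors held 1.88 and 6.11 RPKM. Both neck node tumors lay above all thymic tumors. Between genotypes the log2 fold change was -0.43 (SE 0.78, adjusted p = 0.924 in limma), and with thymic sufficient tumors alone it was 0.72.

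The 4 sufficient tumors were compared by site because genotype is the same in them. The neck node tumors came from mice aged 18 and 16 weeks and the thymic ones from mice aged 10 weeks. Site and age therefore cannot be told apart in this comparison, and a site difference below is also an age difference. Limma tested 12255 genes over 2 neck node and 2 thymic tumors, and 19 passed an adjusted p of 0.05 (0.155%). Of the 5 members that passed the filter, 0 passed the threshold in limma, and 2, Ighg2c and Ighg3, had an unadjusted p under 0.05 and were higher in the neck nodes, against 5.21% of all genes that were called higher and 7.87% in either direction. For 3 of the 5 members, Ighg2b, Ighg2c and Ighg3, the sites did not overlap, with neck nodes higher, against 27.9% of all genes so placed and 12.6% with the neck nodes lower. The median log2 fold change of the 5 was 0.84 with 4 positive, against 0.10 and 61.0% positive for all genes. Ighg3 passed only through the neck node tumors and so had to differ.

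Ighg2c had a log2 fold change of 1.77 between neck node and thymus (SE 0.45, unadjusted p = 0.00682, adjusted p = 0.535 in limma), and its means were 4.15 ± 2.61 and 0.462 ± 0.535 RPKM (SD, n = 2 each). The log2 fold change was 1.16 for Ighg2b and 0.84 for Ighg3, with adjusted p of 0.647 and 0.617 in limma, and for Ighg2b it was 0.31 without sufficient tumor 3 and 2.02 without sufficient tumor 4 (adjusted p = 0.247 in limma). The AC160982.1 row had a log2 fold change of 2.31 (SE 0.27, unadjusted p = 9.81e-05, adjusted p = 0.0573 in limma), and its mean in the neck nodes was 7.22 times that in the thymus, against 8.99 times for Ighg2c and 8.09 times for Ighg3. Its adjusted p ranged from 0.0194 to 0.673 over 13 alternatives and was under the threshold in 4 of them. Ighm and Igkc overlapped between the sites, with log2 fold changes of -0.10 (SE 0.39, adjusted p = 0.960 in limma) and 0.09 (SE 0.33, adjusted p = 0.954 in limma).

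**Figure D4:**
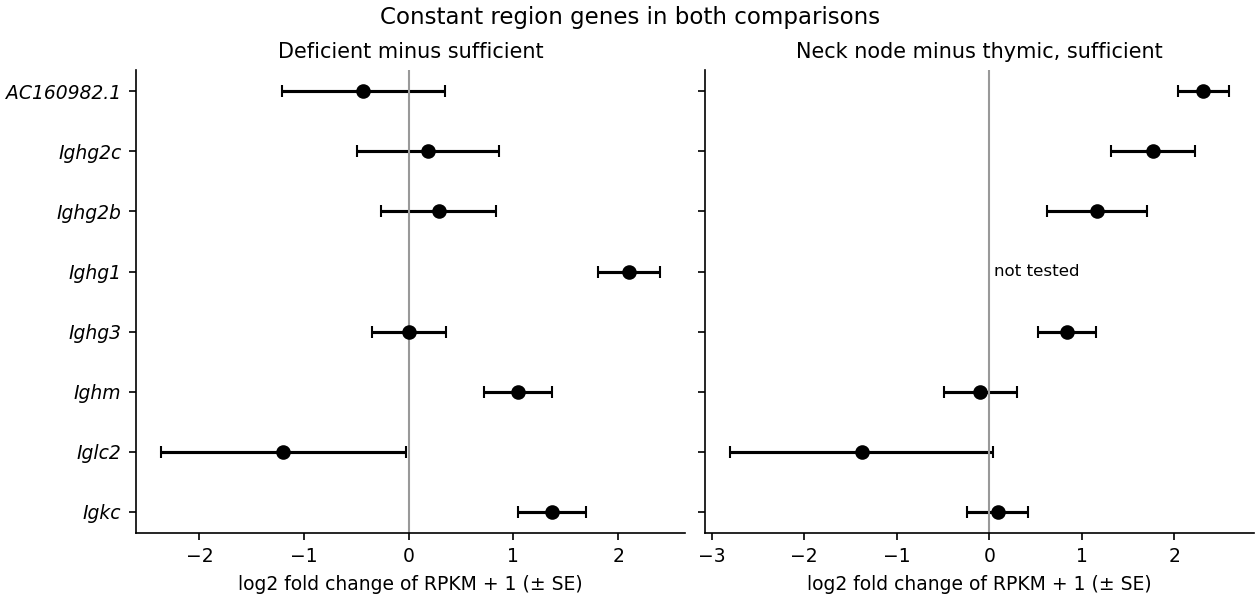
Log2 fold change of RPKM + 1 with its standard error from limma for each constant region gene, left for deficient minus sufficient tumors and right for neck node minus thymic sufficient tumors. Ighm, Igkc and Ighg1 lie above 0 on the left, and AC160982.1, Ighg2c, Ighg2b and Ighg3 lie above 0 on the right.

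Genes of antibody-secreting cells and of other cells were given beside the site difference. Igj, the J chain that joins IgA and IgM into polymers, was at 21.2, 6.21, 1.03 and 3.94 RPKM in the sufficient tumors, and the deficient tumors held 2.86 and 1.56 RPKM. Its log2 fold change between neck node and thymus was 2.00 (unadjusted p = 0.0170, adjusted p = 0.590 in limma), and it was named after its values were seen. Of the 10 plasma cell genes, 8 were tested, with a median log2 fold change by site of 0.15, 0 past the adjusted threshold and 3 at an unadjusted p under 0.05 in limma, 2 higher in the neck nodes (Igj and Derl3) and 1 lower (Fkbp11, log2 fold change -0.59). The sum over all 10 genes was 211 and 154 RPKM in the neck nodes and 139.8 and 203 RPKM in the thymic sufficient tumors. Prdm1 and Tnfrsf17, which mark plasma cells, were the only 2 of the 10 genes below 1 RPKM in every tumor. Sdc1 was at 0.467, 0.882, 0.569 and 2.89 RPKM in the sufficient and 0.497 and 2.15 RPKM in the deficient tumors. Over all tumors Slamf7 was at 33.0 to 85.8, Irf4 at 16.2 to 39.0 and Xbp1 at 8.60 to 18.6 RPKM.

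The neutrophil list moved with the site, and so with the age of the mice. Its 7 genes summed to 1586 and 1615 RPKM in the neck nodes and to 232 and 200.1 RPKM in the thymic sufficient tumors, and 5 of 7 passed the adjusted threshold in limma (S100a8, S100a9, Ngp, Camp and Ltf), all higher in the neck nodes. In the other 13 lists 0 genes passed by site in limma. In the deficient tumors the sum was 106 and 269 RPKM, and between genotypes the median log2 fold change was -1.61 with 0 at an unadjusted p under 0.05 in limma. The part of these other cells in the site difference of the heavy chain genes was not tested.

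Iglc2 stood apart in 1 tumor. It was at 16.4, 14.6 and 6.39 RPKM in sufficient tumors 1, 2 and 3, at 248 RPKM in sufficient tumor 4, with 8.56 and 13.03 RPKM in the deficient tumors. The Iglc2 part of the summed Igkc and Iglc2 RPKM was 17.5% in sufficient tumor 4 and between 0.243 and 1.61% in the other 5 tumors. Iglc1 has no row of that name, so lambda chains with another constant region are not measured by this part. Igkc itself was not lower in this tumor, at 1171 RPKM the highest of the sufficient tumors. With the Iglc2 RPKM added to Igkc, the ratio of this sum to Ighm in sufficient tumor 4 was 0.859, against 0.709 for Igkc alone. Between genotypes the log2 fold change of Iglc2 was -1.20 (SE 1.17, adjusted p = 0.893 in limma), and without sufficient tumor 4 it was -0.12. Between sites it was -1.38 (SE 1.42, adjusted p = 0.805 in limma) and 1.16 without sufficient tumor 4, so that tumor set its direction.

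Genes of B-cell stages were described beside the light chains. Rag1, which encodes a subunit of the recombinase that joins the gene segments, was at 0.640, 3.63, 14.9 and 55.1 RPKM in the sufficient tumors, and the deficient tumors held 2.27 and 0.0813 RPKM, so sufficient tumor 4 was the highest and deficient tumor 2 the lowest. Il7r, the receptor of a growth factor of B-cell precursors, was at 10.9, 5.23, 2.97 and 40.8 RPKM against 1.58 and 2.26 RPKM, again highest in sufficient tumor 4. Vpreb3 and Rag2 of the same list were also highest there, at 311 and 9.33 RPKM. The list did not move as one, since Vpreb1 and Igll1 were lowest of all tumors there, at 0.224 and 0.0814 RPKM. Dntt was at 0.415 RPKM there and highest in sufficient tumor 3, at 6.34 RPKM. Rag1 and Rag2 were also higher in both thymic sufficient tumors than in both neck node tumors. Rag2 was at 0.219 and 0.869 RPKM in the neck nodes and 5.21 and 9.33 RPKM in the thymic sufficient tumors. By site and so by age, the log2 fold changes were -3.44 for Rag1 and -2.41 for Rag2 (adjusted p = 0.316 and 0.150 in limma). Of the 7 genes of the list tested by site, 1 had a positive log2 fold change. The 7 tested genes of the pro-B and pre-B list had a median log2 fold change of -0.91 between genotypes, with 0 past the adjusted threshold and 1, Il7r, at an unadjusted p under 0.05 in limma. Of these 7 genes, 0 had a positive log2 fold change. The sum over all 10 genes of the list was 229 to 417 RPKM in the sufficient tumors and 281 and 139.2 RPKM in the deficient tumors. Vpreb3 made up most of this sum in every tumor, at 191 to 311 RPKM in the sufficient and 272 and 136 RPKM in the deficient tumors. The 7 tested mature B genes had a median of -0.07. The 8 tested plasma cell genes had a median of -0.04 between genotypes and 1, Tnfrsf13b, at an unadjusted p under 0.05. Of the germinal center genes 3 were tested, with a median of 0.21 and 1, S1pr2, at an unadjusted p under 0.05. S1pr2 was at 3.60, 1.05, 0.414 and 1.002 RPKM in the sufficient and 3.03 and 15.4 RPKM in the deficient tumors, so the groups overlapped and deficient tumor 2 stood alone, and 0 genes of these 3 lists passed the adjusted threshold in limma.

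Genes that act on the antibody genes or their products were counted in the same way. All 12 genes of immunoglobulin gene transcription were tested, with a median log2 fold change of 0.20 between genotypes and 0 at an unadjusted p under 0.05 in limma. Pou2af1, the coactivator of octamer-driven promoters, was the most abundant, at 285, 281, 209.8 and 318 RPKM in the sufficient and 282 and 249 RPKM in the deficient tumors. The 12 genes of assembly and secretion had a median of 0.13 and 0 at an unadjusted p under 0.05 in limma, the same as the shift of all genes. The chaperone Hspa5, which binds unassembled heavy chains, was at 103, 108, 78.8 and 96.0 RPKM against 125 and 114 RPKM. The 9 tested receptor and antibody partners had a median of 0.07 with 0 at an unadjusted p under 0.05 in limma.

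Variable, diversity and joining segments gave no further measure of the chains. All 304 rows of the type IG_LV_gene and all 25 rows of diversity segments were listed at 0 in every tumor, as were 87 of 88 joining segment rows. Of 94 rows named as V segments, between 2 and 7 were above 0 in a tumor. The highest was Igkv19-93 in 5 tumors, at 5.29, 5.69, 6.09 and 22.5 RPKM in the sufficient tumors and 1.88 RPKM in deficient tumor 2, and Ighv13-2 at 4.26 RPKM in deficient tumor 1. Sufficient tumor 4 was therefore highest for both Igkv19-93 and Iglc2. With Igkc at 851 RPKM or more in the same tumors, sums over these rows do not measure the variable regions joined to it.

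The genes whose pattern over the 6 tumors was most like that of Ighm and Igkc were found by the root-mean-square difference of centred log2(RPKM + 1) values. For Ighm they were Slco4a1 (difference 0.14), C3ar1 (0.18), Trib2 (0.18) and Tmod4 (0.19), of 6499 genes that varied at least by the set amount. Slco4a1 was at 2.75, 4.58, 2.69 and 4.96 RPKM in the sufficient and 7.84 and 10.9 RPKM in the deficient tumors. For Igkc they were Lyrm7 (0.16), Slc44a1 (0.23), Gm5913 (0.26) and Mcts2 (0.27), of 4153 genes. Lyrm7 was at 1.99, 2.28, 1.33 and 1.62 RPKM against 7.91 and 5.31 RPKM. None of these genes was among the nearest 4 of both members.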

How the data were processed

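RNA from 6 Eμ-Myc tumors was sequenced in single-end reads of 100 bases, with 2 technical replicates per tumor per the labels and 1 value per gene and tumor in the table. The authors aligned the reads to GRCm38 with STAR 2.3.0, using Ensembl release 71, and counted them per gene with HTSeq 0.5.4p3. The deposited values are RPKM, and how the authors made RPKM from the counts, with which gene lengths, is not given in the sources used here. Depth is therefore unknown, no counting interval was computed, and p-values rest on the spread between individual tumors.

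Genes that reached 0.5 RPKM in 2 or more of the tumors fitted were tested as log2(RPKM + 1) with limma 3.58.1 (trend) in R 4.3.3, with Benjamini-Hochberg adjustment over all genes tested and a threshold of 0.05. The design was genotype over 6 tumors and site over the 4 sufficient tumors. Shares and sums were compared by exact two-sided permutation with SciPy 1.17.1. Positions and sequences came from GENCODE M21 on GRCm38 and were aligned with Biopython 1.88.

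The text names all members in every tumor, every list gene past the threshold and otherwise at most the 4 most abundant per list, the 4 genes nearest to Ighm and Igkc, and the highest V segment per tumor. Genes named outside this rule, including Igj, Derl3, Xrcc6, Tnfrsf13b, Prdm1, Tnfrsf17, Foxn1 and Psmb11, were chosen after their values were seen or as defining markers. Rag2, Igll1, Dntt, Sdc1 and Xbp1 were also named outside it, after their values were seen. Not every gene of the lists is reported here. The members and lists were chosen with earlier results of these data known. A planned kappa share with Iglc1 was replaced by Igkc against Iglc2, and planned V sums were left out because nearly all rows are at 0. Alternatives changed the filter, pseudocount, scaling, prior, site handling and tumors included.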

Additional observations from a re-analysis of the deposited data

Results flagged for a closer look

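Measures in the 4 sufficient tumors were screened for a tumor far from the rest, by the gap to the nearest tumor as a share of the whole range. Of 35 measures, 6 passed the limit. Chance would pass about 1 in 20 groups of independent, normally distributed values. These measures overlap and some are mostly 0, so the count of 6 is not read against that rate. The tumor that stood apart was sufficient tumor 4 in all 6. The share was 1.0 for Ighe RPKM and 1.0 for Ighe as a percent of the heavy chain sum, since Ighe was listed at 0 in the other 3 tumors. It was 0.958 for Iglc2 RPKM, and 0.948 for both the kappa and the lambda percent of Igkc plus Iglc2, which are 1 measure seen from both sides. It was 0.871 for the ratio of Igkc to Ighm, which was 0.709 in that tumor.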

How the results depend on the processing

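No constant region member passed the adjusted threshold under any of 18 alternatives for genotype and 13 for site in limma. Ighm and Igkc were higher in the deficient tumors in every fit. Ighg1 was also higher in each fit that tested it, but it passed the filter only through the deficient tumors. Its direction and adjusted p are therefore a description and are not read as support. The adjusted p ranged from 0.487 to 1.00 for Ighm, from 0.537 to 1.00 for Igkc and from 0.0548 to 0.505 for Ighg1, whose log2 fold change ranged from 0.83 to 3.99. Over all genes, 8 passed between genotypes, against 3 with thymic tumors only, 3 with site as a covariate, and 4 to 9 when 1 tumor was left out (4 without sufficient tumor 3, 5 without either deficient tumor). Between sites 19 passed, against 11 after quantile normalization and 0 in limma without the filter (1388 at an unadjusted p under 0.05), and 11 to 67 when 1 tumor was left out (32 without sufficient tumor 1, 67 without 2, 11 without 4). Genes at an unadjusted p under 0.05 between genotypes were 367 higher and 94 lower, against 215 and 177 after median-ratio scaling and 227 and 187 after quantile normalization.

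The replicate numbers are the sample numbers of the titles, which state no pairing. The correlations of same-numbered tumors, as deviations from their group means, were 0.02 and 0.21 over 2 pairs. With 2 deficient tumors these deviations mirror each other, so pairs of unlike number gave -0.02 and -0.21. These correlations therefore cannot decide whether the tumors were paired. With the replicate block, which sets the deficient tumors against the neck node tumors only, 1 gene passed, and the log2 fold change turned to -0.30 for Ighg2b, -0.70 for Ighg2c and -0.42 for Ighg3. It was 1.09 for Ighm and 1.33 for Igkc. The site comparison shares no numbers, so no paired fit was made there.

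Between genotypes, Ighg3 was also at -0.014 with a pseudocount of 5, at -0.028 after median-ratio scaling and at -0.031 after quantile normalization. The AC160982.1 row turned to 0.72 with thymic tumors only and 0.72 with site as a covariate. With 1 tumor left out, the range was -0.19 to 0.50 for Ighg2b (lowest without sufficient tumor 3), -0.37 to 0.74 for Ighg2c, -0.18 to 0.24 for Ighg3 and -1.08 to 0.22 for AC160982.1. Between sites, Ighm was at 0.13 after quantile normalization and Igkc at -0.055 after median-ratio scaling, and with 1 tumor left out the range was -0.53 to 0.33 for Ighm, -0.14 to 0.32 for Igkc and -3.92 to 1.16 for Iglc2. Without sufficient tumor 3 Iglc2 passed in limma (adjusted p = 0.0177), where sufficient tumor 4 is the lone thymic tumor and is assumed to vary like the others. The AC160982.1 row passed between sites in limma with a filter of RPKM 1 (adjusted p = 0.0426), without trend (0.0466), with a robust prior (0.0194) and without sufficient tumor 2 (0.0235), with a range of 0.0194 to 0.673 over all alternatives. The causes were not tested. DESeq2 was not run because the table holds no counts, and low values such as those of Ighe and Ighg3 carry an unknown counting error.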
